A study of Arabidopsis thaliana with 14 samples.

Results

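The 152 loci of the Arabidopsis mitochondrial genome were followed through total, nuclear and cytoplasmic poly(A)+ RNA of flower buds. They were all rows of the gene tables with an identifier that begins with ATMG, 152 of 37336 genes. Inflorescences with immature flower buds of stages 1 to 12 came from wild-type Columbia plants and from aly1-2, a mutant of ALY1, which encodes an adaptor of mRNA export. Both genotypes grew in 16-h days at 22 °C, and the labels name no treatment. Wild type and aly1-2 each gave 3 total, 2 nuclear and 2 cytoplasmic libraries, 14 in all, and the labels do not say which libraries came from separate plants, so p-values measure the spread between these libraries, which may be technical. Each library held 7.23e+06 to 1.27e+07 gene counts.

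Plant mitochondria keep a small genome that encodes some subunits of the respiratory chain, of the ATP synthase and of the mitochondrial ribosome, along with proteins that mature cytochrome c. Most other mitochondrial proteins are encoded in the nucleus and imported. In plant mitochondria a poly(A) tail marks an RNA for decay, whereas on nuclear mRNAs it goes with stability and export, so a poly(A)-selected library samples the tailed part of the mitochondrial RNA. Arabidopsis Columbia also carries a long insertion of mitochondrial DNA near the centromere of chromosome 2, and reads from either place can match both.

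In the TAIR10.1 reference, 265829 of the 367808 mitochondrial bases (72.3%) aligned to chromosome 2 between positions 3239038 and 3509768 at 99% identity or more, in 14 alignments of at least 1000 bases. The authors counted on TAIR10, and the mitochondrial sequence of TAIR10.1 is that of RefSeq, which may differ from theirs. Of 33 RefSeq entries for mitochondrial proteins, 22 had their whole coding sequence on chromosome 2, 3 had part of it and 8 had none of it. The 8 without a copy were atp4, ccmB, cox1, cox2, nad4L, nad9, rpl16 and rps3. The reference paired 53 of the 152 loci with a partner on chromosome 2, and 18 of these received a gene symbol. The other 99 loci have no name in the tables used here and are given by identifier only.

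The sequences show how alike both copies are at rps12, the most abundant locus with a symbol. The stretch from the end of nad3, a complex I subunit, to the start of rps12, a ribosomal protein of the small subunit, is shown with the spacer of 45 bases between the genes in capitals (RefSeq, TAIR10.1, plus strand of MT:288341-288505 and of chr2:3270305-3270469).
mitochondrial genome: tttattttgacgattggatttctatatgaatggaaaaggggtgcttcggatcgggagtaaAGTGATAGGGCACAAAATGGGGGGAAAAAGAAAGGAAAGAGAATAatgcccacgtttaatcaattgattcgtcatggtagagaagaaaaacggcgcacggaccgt
chromosome 2: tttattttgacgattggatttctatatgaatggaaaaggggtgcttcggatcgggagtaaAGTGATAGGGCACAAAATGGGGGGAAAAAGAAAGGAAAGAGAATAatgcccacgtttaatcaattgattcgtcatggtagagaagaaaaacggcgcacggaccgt
The 2 stretches were identical, and so were the whole coding sequences of rps12 (378 bases) and nad3 (357 bases). A read from inside either gene therefore cannot be assigned to one copy.

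Some partner loci on chromosome 2 differ from the mitochondrial gene at 1 or more bases, lack a base or hold only part of the coding sequence. The gene ccmC, for a subunit of the cytochrome c maturation machinery, has 2 copies on chromosome 2. It is shown around position 550 of its coding sequence, counted from 1 at the first coding base, with that base in capitals (RefSeq, TAIR10.1, MT:308817-308877 plus strand, chr2:3239884-3239944 minus strand and chr2:3290750-3290810 plus strand).
mitochondrial ccmC: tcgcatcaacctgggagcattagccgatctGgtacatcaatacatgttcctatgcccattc
AT2G07771: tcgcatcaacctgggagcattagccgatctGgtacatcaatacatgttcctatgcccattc
AT2G07681: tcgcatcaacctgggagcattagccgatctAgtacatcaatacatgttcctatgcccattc
The change G550A was the only difference between mitochondrial ccmC and AT2G07681 over 771 coding bases, and AT2G07771 had no difference.

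Values that were not whole numbers were common. Of the 152 loci, 134 had a value that was not a whole number in at least 1 library, within a tolerance of 0.001, and 1011 of 2128 values (47.5%) were not whole. Among these, 44.1% ended in 0.5. All 53 loci with a partner on chromosome 2 had such values, against 81 of the 99 unnamed loci, for which the reference gave no partner. ATMG00420 and ATMG01160, both of the latter kind, held the same values as each other in all 14 libraries, 13 of them not whole. Which places shared the reads was not tested. The other 18 loci held whole numbers in all 14 libraries, among them ATMG01380 (72 to 346 counts), ATMG01360 (7 to 227 counts) and ATMG00060 (1 to 123 counts). Low counts bear on this split, since 76 of the 152 loci averaged under 5 counts per library.

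Only a small part of the gene counts was mitochondrial. The share was 0.580%, 0.501% and 0.563% in the wild-type total libraries and 0.493%, 0.611% and 0.803% in those of aly1-2. It was 0.935% and 1.15% in wild-type nuclear RNA, 1.34% and 1.01% in aly1-2 nuclear RNA, 0.556% and 0.704% in wild-type cytoplasmic RNA and 0.560% and 0.852% in aly1-2 cytoplasmic RNA. All 4 nuclear libraries lay above all 6 total libraries, while the cytoplasmic and total libraries overlapped. The difference between nuclear and total RNA was 0.517 percentage points, larger than the spread between libraries (p = 0.01, two-sided exact permutation test within genotype, the smallest p it can give). Nuclear against cytoplasmic RNA gave 0.441 points, where the exact test cannot go below its value of 0.0556, and cytoplasmic against total RNA gave 0.0763 points (exact permutation p = 0.36). The depth gave narrow counting errors: the 95% binomial interval was 0.575% to 0.585% in the first wild-type total library, and such intervals cover counting error only.

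What else filled the libraries differed by fraction. Nuclear-encoded rRNA took 3.64% to 6.92% of counts in the total and nuclear libraries and 49.4% to 60.5% in the cytoplasmic ones, and plastid loci took 5.01% to 6.77% in total, 8.56% to 11.3% in nuclear and 15.2% to 20.3% in cytoplasmic RNA. With rRNA left out of the library total, the nuclear minus cytoplasmic difference turned to -0.271 points. The part of these shares in the mitochondrial results was not tested beyond such rescaling. ALY1 itself stood at 107, 111 and 119 CPM (counts scaled to a common library total) in wild-type total RNA and at 14.1, 20.6 and 17.1 in aly1-2, and the lowest wild-type library of any fraction (25.7) lay above the highest mutant one (20.6). The flower markers AP1, AP3, PI, AG, SEP3 and LFY were above 0 in every library.

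Mitochondrial counts were concentrated in 2 loci that the tables do not name, ATMG00020 and ATMG01390, which were singled out after their values were seen. Together they made up 79.1% to 87.5% of mitochondrial counts in the total and nuclear libraries and 96.4% to 97.5% in the cytoplasmic ones. Summed, they stood at 3896 to 6954 CPM in total, 7969 to 11749 CPM in nuclear and 5403 to 8279 CPM in cytoplasmic RNA. The other 150 loci behaved otherwise. In CPM, total RNA held 876, 833 and 985 from them in wild type and 1029, 930.3 and 1081 in aly1-2, nuclear RNA held 1382 and 1999 in wild type and 1682 and 1866 in aly1-2, and the 4 cytoplasmic libraries held 138, 218, 201 and 238. The 3 fractions did not overlap for this sum. In bulk RNA, fewer cells of a type and less RNA per cell cannot be told apart, and the same holds for organelles.

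**Figure D1:**
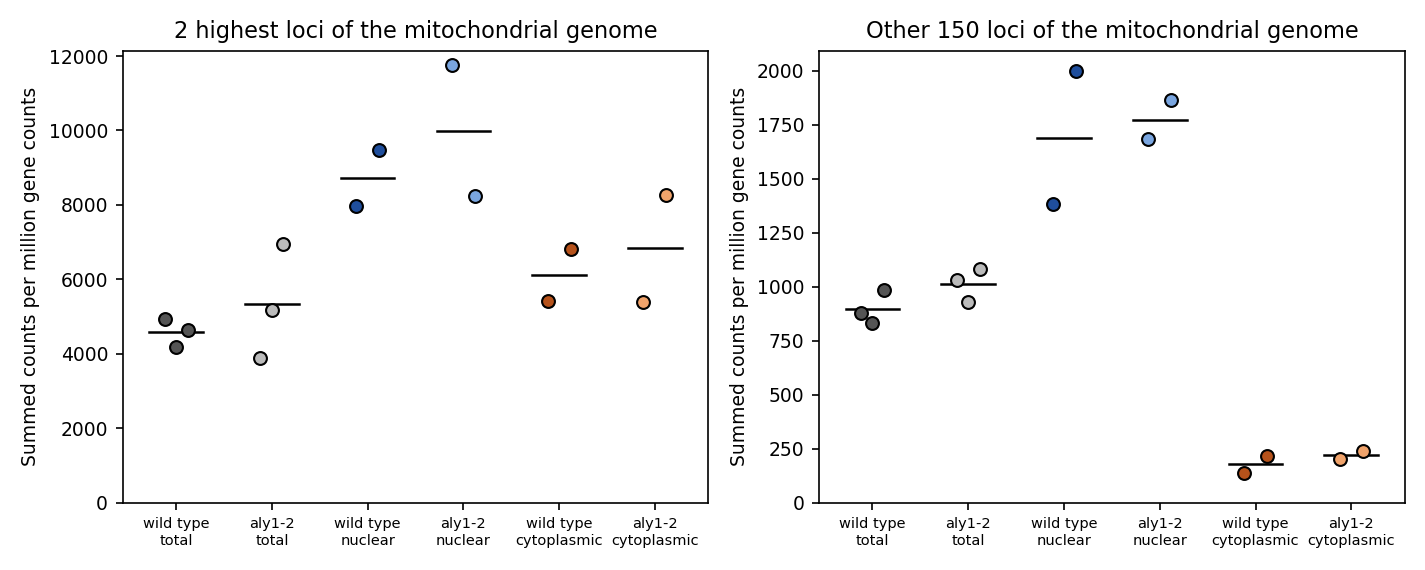
Summed CPM, without TMM scaling, of ATMG00020 and ATMG01390 (left) and of the other 150 mitochondrial loci (right), by genotype and fraction. Points are libraries and lines group means. The 4 cytoplasmic libraries sit between 138 and 238 on the right, under all others, and between 5403 and 8279 on the left, within the range of the others.

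For the comparisons locus by locus, counts were scaled by TMM, which sets library sizes from the bulk of genes and thereby takes the cytoplasmic rRNA into account. Nuclear against cytoplasmic RNA asks which transcripts were relatively more abundant inside the nuclear preparation. Of 152 loci, 73 had enough counts to be tested. In edgeR's quasi-likelihood test 51 of the 73 were higher in nuclear RNA at an adjusted p under 0.05 and 4 were lower. Over all 20971 genes tested, 21.3% were higher and 16.9% lower, 38.2% in all. The median log2 difference was 2.47 over the 73 loci and 0.10 over all genes. Without wild-type nuclear replicate 2 the call count fell to 32 higher and 4 lower, and that of all genes from 8017 to 6225. Loci with few counts drop out of such a test unless one fraction has them, so these counts describe the tested loci and not all 152.

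Complex I passes electrons from NADH into the respiratory chain, and its 3 symbol-bearing loci, nad1, nad2 and nad3, were all higher in nuclear RNA. For nad3 the TMM-scaled CPM were 7.91, 7.26 and 10.5 in wild-type total, 9.67, 8.83 and 14.96 in aly1-2 total, 48.5 and 37.8 in wild-type nuclear, 39.8 and 40.6 in aly1-2 nuclear, 2.99 and 3.87 in wild-type cytoplasmic and 5.61 and 3.38 in aly1-2 cytoplasmic RNA. The 3 fractions did not overlap. The nuclear level was 10.3 times the cytoplasmic one, a log2 difference of 3.36 ± 0.28 (SE, edgeR adjusted p = 4.466e-06). The nad2 difference was 2.56 ± 0.64 and that of nad1, at 0 to 1.83 CPM, 2.61 ± 0.96 (edgeR adjusted p = 0.0466). With 0 to 3.5 cytoplasmic counts for nad1 and 0.5 to 13 for nad2, both entered the test through the nuclear libraries. Their calls therefore do not describe the complex.

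Ribosomal proteins of the mitochondrion were represented by rps12, rps4, rps7, rpl2 and rpl5. The most abundant by far was rps12, at 81.4, 87.0 and 97.5 CPM in wild-type total, 100.3, 99.9 and 137 in aly1-2 total, 118 and 322 in wild-type nuclear, 296 and 307 in aly1-2 nuclear, 8.27 and 12.8 in wild-type cytoplasmic and 23.1 and 13.2 in aly1-2 cytoplasmic RNA. Wild-type nuclear replicate 1 lay within the range of the total libraries, and the other 3 nuclear libraries lay above them. Nuclear RNA held 18.3 times the cytoplasmic level (log2 4.19 ± 0.35, edgeR adjusted p = 4.761e-06), and 4.48 on the log2 scale without wild-type nuclear replicate 1. The large-subunit protein gene rpl2 was higher by 3.22 ± 0.51, rpl5 and rps4 each by 1.74, and rps7, at 1.69 ± 0.86, did not pass (adjusted p = 0.139).

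The neighbours nad3 and rps12 did not keep 1 ratio. Per count, nad3 stood at 0.0835 to 0.109 of rps12 in the 6 total libraries, at 0.118, 0.132 and 0.135 in 3 nuclear libraries and at 0.412 in wild-type nuclear replicate 1. In the cytoplasmic libraries it was 0.243 to 0.361, above all total libraries. The cytoplasmic ratios rest on 10 to 24.08 counts of nad3.

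The ATP synthase loci were split. The alpha subunit gene atp1 stood at 10.1 to 14.3 CPM in total, 20.6 to 28.6 in nuclear and 3.32 to 5.83 in cytoplasmic RNA, with no overlap, and was 5.19 times higher in nuclear than in cytoplasmic RNA (log2 2.38 ± 0.29, edgeR adjusted p = 6.403e-05). The gene atp8 was higher by 3.12 ± 0.68. By contrast atp9, for the membrane ring subunit, had 18.3 to 32.8 CPM in nuclear and 9.54 to 34.3 CPM in cytoplasmic RNA, and its difference of 0.44 ± 0.275 did not pass (adjusted p = 0.219). Neither did that of atp6, the channel subunit (1.33 ± 0.53, adjusted p = 0.0632).

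The symbol-bearing loci of complexes III and IV had low levels. The genes cox1 and cox2, without a copy on chromosome 2, are not among them. The cytochrome b gene cob had 1.76 to 2.59 CPM in total, 4.65 to 6.04 in nuclear and 1.99 to 3.03 in cytoplasmic RNA, a nuclear minus cytoplasmic difference of 1.07 ± 0.44 that did not pass (adjusted p = 0.0702). The cytochrome oxidase subunit gene cox3 was higher in nuclear RNA by 1.78 ± 0.66 (adjusted p = 0.0479), and ATMG01280, annotated as like the transmembrane part of cytochrome oxidase subunit II, by 1.76 ± 0.61 (adjusted p = 0.0358). Of the cytochrome c maturation genes, ccmFN2 was higher by 2.37 ± 0.82 and ccmC, at 0 to 1.59 CPM, did not pass.

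The third, ccmFC, was the only locus with a symbol that was lower in nuclear than in cytoplasmic RNA. It had 6.86, 8.02 and 7.34 CPM in wild-type total, 9.53, 8.18 and 8.13 in aly1-2 total, 14.7 and 17.1 in wild-type nuclear, 17.2 and 15.6 in aly1-2 nuclear, 21.0 and 31.5 in wild-type cytoplasmic and 35.3 and 42.7 in aly1-2 cytoplasmic RNA. The fractions did not overlap. Its difference was -1.01 ± 0.24 (edgeR adjusted p = 0.005161). On library totals without TMM it was 0.53, with the opposite sign and not past the threshold, where the median of all genes stood at 1.66.

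ATMG00020, ATMG01390 and ATMG00230 were the other loci lower in nuclear RNA. ATMG00020 had 1304 to 2355 CPM in total, 3247 to 5364 in nuclear and 5912 to 11048 in cytoplasmic RNA, and ATMG01390 had 1073 to 2281 CPM, 2874 to 4863 and 5972 to 11151. Neither overlapped between fractions on this scale, and their nuclear minus cytoplasmic differences were -1.05 ± 0.30 and -1.03 ± 0.27 (edgeR adjusted p = 0.0145 and 0.008926). They turned to 0.53 and 0.54 on library totals without TMM, under the median of all genes there, and to -0.21 and -0.20, no longer past the threshold, as shares of mitochondrial counts. ATMG00230 rested on few counts, 0.5 to 2.5 in the total libraries, 34.5 in wild-type nuclear replicate 1 and 0.5 to 2.5 in the other nuclear ones, and 9.0 to 19.0 in cytoplasmic RNA. Its difference of -3.02 ± 0.98 became -6.33 without wild-type nuclear replicate 1, and missed the threshold without 3 of the 4 cytoplasmic libraries in turn (adjusted p = 0.0552 to 0.0977).

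**Figure D2:**
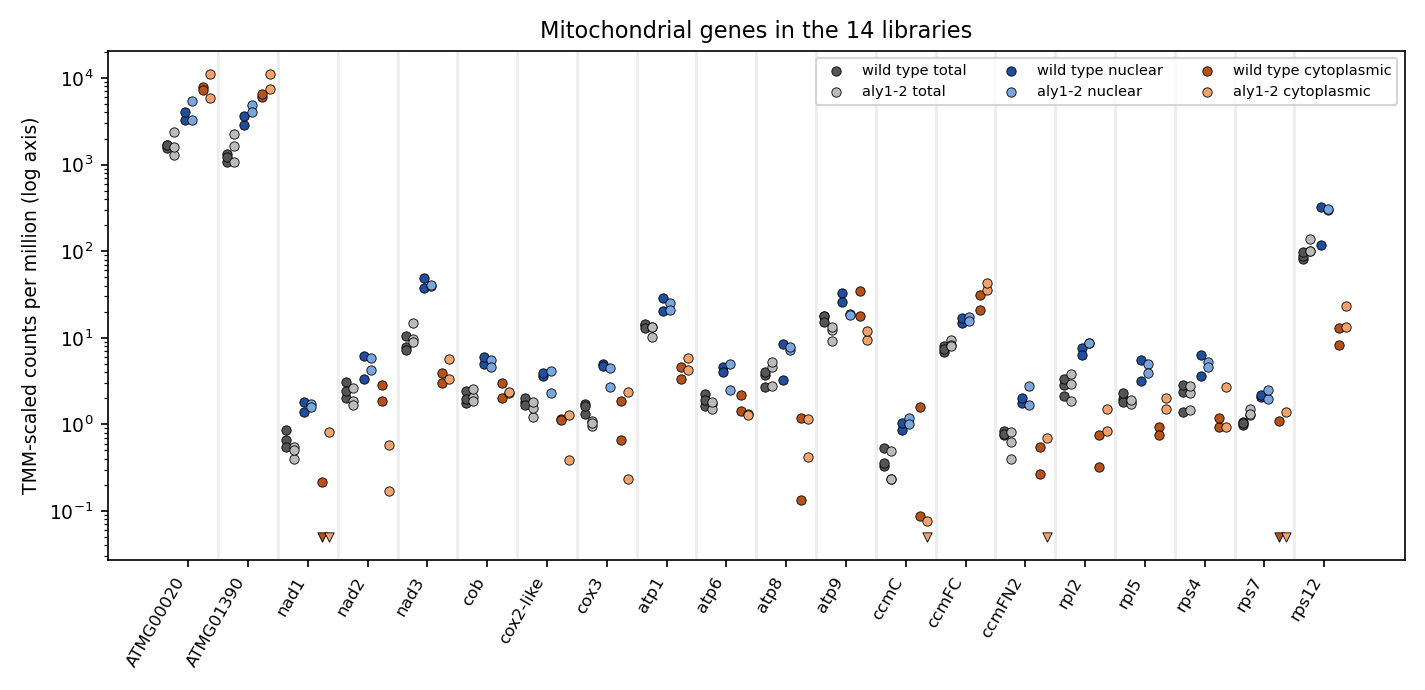
TMM-scaled CPM (log axis) of ATMG00020, ATMG01390 and the 18 mitochondrial loci with a symbol, in each of the 14 libraries. Triangles at the lower edge mark values under 0.05. For nad3, rps12 and atp1 the cytoplasmic points lie lowest, and for ccmFC and both unnamed loci they lie highest.

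Most open reading frames and other annotated loci without a symbol had too few counts to be tested. Of 35 such loci 7 were tested, 6 were higher in nuclear RNA and none was lower. Those with next to no cytoplasmic counts, such as ATMG00530 (0 to 1.67), entered the test through the nuclear libraries. The 6 calls therefore do not describe the class. ATMG00500, annotated as an unknown protein, had 2.73 to 6.03 CPM in total, 9.08 to 13.7 in nuclear and 0.133 to 1.28 in cytoplasmic RNA (log2 4.02 ± 0.52). ATMG01090, whose note names ATP synthase subunit 9, differed by 2.68 ± 0.47 and ATMG00590, whose note names a cytochrome b/b6 protein, by 3.53 ± 0.70. Among the 48 tested unnamed loci 33 were higher and 3 lower. ATMG00090, with 61.8 to 123 CPM in total, 175 to 350.5 in nuclear and 10.4 to 21.7 in cytoplasmic RNA, differed by 4 ± 0.315, and ATMG00660 by 3.21 ± 0.32. ATMG00030 and ATMG00830 did not pass, at -0.07 ± 0.28 and 0.36 ± 0.22.

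**Figure D3:**
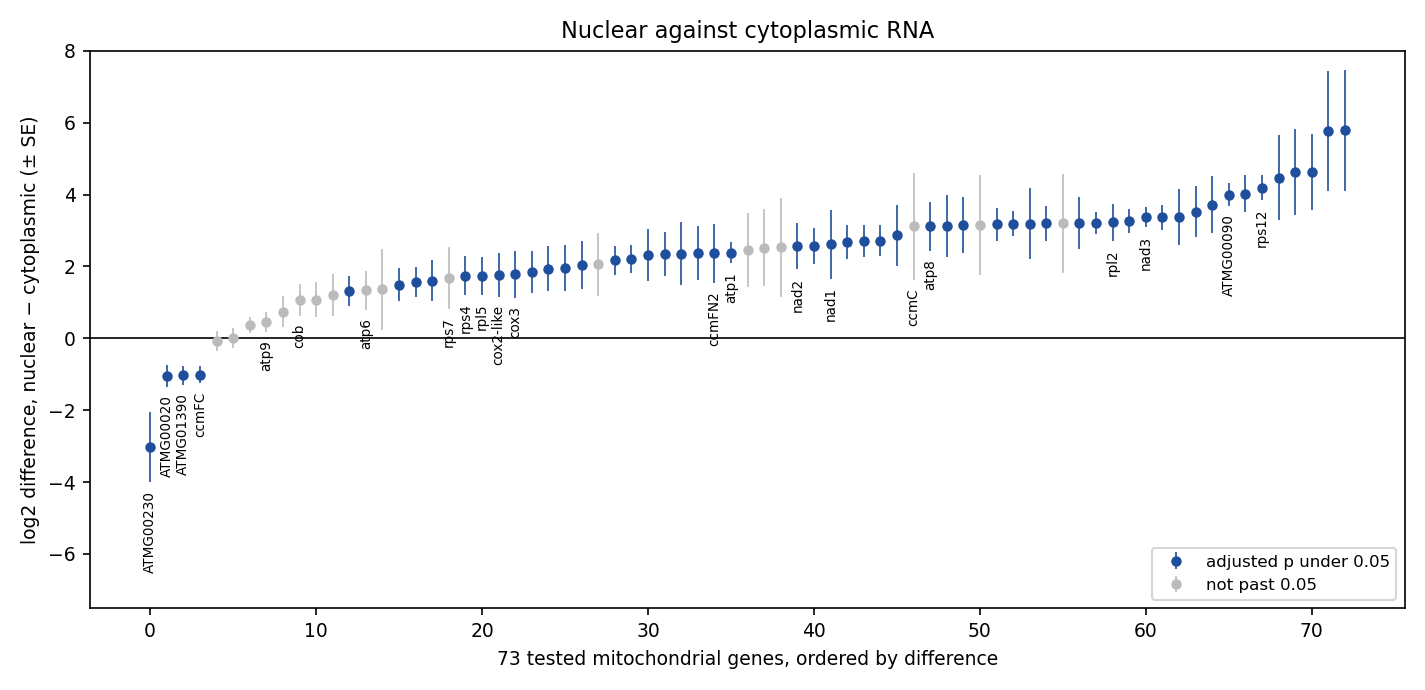
Log2 difference between nuclear and cytoplasmic RNA for the 73 tested mitochondrial loci in order of size, with the standard error. Blue points passed an adjusted p of 0.05. The 4 blue points under 0 are ATMG00230, ATMG00020, ATMG01390 and ccmFC, and 51 blue points lie above 0.

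Against total RNA, which shares its libraries between both of the next comparisons, nuclear RNA held more and cytoplasmic RNA less of most tested loci. In nuclear against total RNA 42 of 75 tested loci were higher and 0 lower (edgeR), where 10.1% of all 21728 genes were higher and 3.02% lower, 13.1% in all. An unadjusted p under 0.05 was found for 61 of the 75, and DESeq2 called 46 higher and 0 lower. Without either aly1-2 nuclear library 25 were called, against 2540 and 1617 of all genes. The median was 1.12 over the tested loci and 0.07 over all genes. Of the 18 loci with a symbol, 15 were higher, with nad3 at 2.09 ± 0.18, cox3 at 1.72 ± 0.37 and rps12 at 1.37 ± 0.24.

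In cytoplasmic against total RNA 39 of the 75 were lower and 7 higher, where 26.5% of all genes were lower and 24.7% higher, 51.1% in all. The median was -1.45, and -0.06 over all genes. Among loci with a symbol 6 were lower and 1, ccmFC, was higher (2.00 ± 0.15). The lower ones included rps12 (-2.84 ± 0.28), atp8 (-2.33 ± 0.54), atp1 (-1.52 ± 0.20) and nad3 (-1.295 ± 0.238, adjusted p = 0.0004666). The other 6 higher loci were ATMG00020 (2.24 ± 0.225), ATMG01390 (2.44 ± 0.21), ATMG00030 (1.97 ± 0.24), ATMG00230 (5.60 ± 0.90), ATMG01380 (1.15 ± 0.19) and ATMG00830 (0.73 ± 0.17). On library totals without TMM, where the median of all genes moved to -1.99, 70 loci were lower and 2 higher, and 19443 genes were called in all.

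Scaled to the mitochondrial counts alone, the picture within the organelle's RNA was different. As shares of mitochondrial counts, 2 loci were higher in nuclear than in total RNA and 6 lower, out of 75, where 16411 genes were called in all and the median of all genes was -1.26. The higher ones were nad3 (0.81 ± 0.28) and ATMG00030 (0.61 ± 0.28, adjusted p = 0.0429). For cytoplasmic against total RNA 70 loci fell as shares, with ATMG00230 the 1 that rose. ATMG00020 and ATMG01390 made up 79.1% to 86.6% of these counts in total and 96.4% to 97.5% in cytoplasmic RNA. The other loci together therefore had to fall as shares. Over all genes 19776 were called on this scale, with a median of -2.17. ATMG00020 made up 47.8% to 49.4% of mitochondrial counts in wild-type total RNA and 41.8% to 44.0% in aly1-2, and ATMG01390 made up 34.0% to 37.1% and 35.9% to 42.9%. For ATMG00020 the genotypes did not overlap in total RNA, and the share difference of -0.17 ± 0.26 did not pass (edgeR adjusted p = 0.981).

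Levels were also set per length of coding sequence, on library totals without TMM. In the 6 total libraries rps12 stood at 353 to 543 CPM per kb, atp9 at 65.7 to 129.6, nad3 at 32.3 to 62.8 and atp1 at 10.8 to 14.9. The remaining symbol-bearing loci with a measured coding length lay lower in their mean, down to ccmC at 0.458 to 1.12 CPM per kb. These levels hold the reads, in whole or in part, that were counted under the mitochondrial identifier. Summed counts were 0.805 times those of the chromosome 2 partner for rps12 and 13.1 times for ccmFC. Such differences limit a comparison between genes.

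Of the 167 loci of the chromosome 2 copy in the tables, 165 were above 0. Their summed counts lay under the mitochondrial ones in every library, at 17661 against 50836 in wild-type total replicate 1 and 1881 against 53746 in wild-type cytoplasmic replicate 1. That order rested on ATMG00020 and ATMG01390. The other 150 mitochondrial loci held 7680 and 1332 counts in these libraries, less than the chromosome 2 loci. They held less in every library except aly1-2 cytoplasmic replicate 2 (1887 against 1523). Over the 19 pairs of a symbol-bearing mitochondrial locus and its chromosome 2 partner, the ratio of summed counts had a median of 0.940, and 16 pairs lay between 0.5 and 2. The partner of rps12, AT2G07675, had 1457 counts in wild-type total replicate 1 where rps12 had 1169, and 46.3 where rps12 had 31.2 in wild-type cytoplasmic replicate 1. For rps12 the nuclear minus cytoplasmic difference was 4.19 and for AT2G07675 it was 3.999 ± 0.349, and for nad3 and AT2G07751 it was 3.36 and 3.29 ± 0.30. Since identical copies share reads, such pairs are not separate measurements.

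The pair of cob and AT2G07727 did not run together. cob had 25.3 to 44.0 counts in total, 46.3 to 71.8 in nuclear and 7 to 14 in cytoplasmic libraries, whereas AT2G07727 had 138 to 228, 332 to 404 and 273 to 573. AT2G07727 was thus highest in the wild-type cytoplasmic libraries, at 573 and 549.5 counts. It was lower in nuclear than in cytoplasmic RNA by -1.85 ± 0.21 (edgeR adjusted p = 4.171e-05), while cob had 1.07 ± 0.44. With partner reads added, cob turned to -1.66 (adjusted p = 7.944e-05). AT2G07727 spans chr2:3449534-3452776, longer than the 1182 coding bases that are identical to cob.

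A single chromosome 2 locus, AT2G07783, took 71.0% of the counts of all 167. It spans chr2:3297892-3299395 and holds the 1149 coding bases of ccmFN1, another cytochrome c maturation gene. It had 12211 to 19368 counts in total, 12292, 36742, 37201 and 31172 in nuclear and 782 to 1864 in cytoplasmic libraries. On the TMM scale wild-type nuclear replicate 1 stood at 1306 CPM, above the total libraries (804 to 1147) and under the other 3 nuclear ones (2848 to 3362). It was higher in nuclear than in cytoplasmic RNA by 3.07 ± 0.33 (edgeR adjusted p = 2.318e-05). The opposite imbalance was that of ccmFC, which had 79.0 to 223 counts per library where its partner AT2G07815 had 4.67 to 21.8. AT2G07815 holds 551 of the 1329 coding bases of ccmFC, so these 2 loci do not cover the same sequence.

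**Figure D4:**
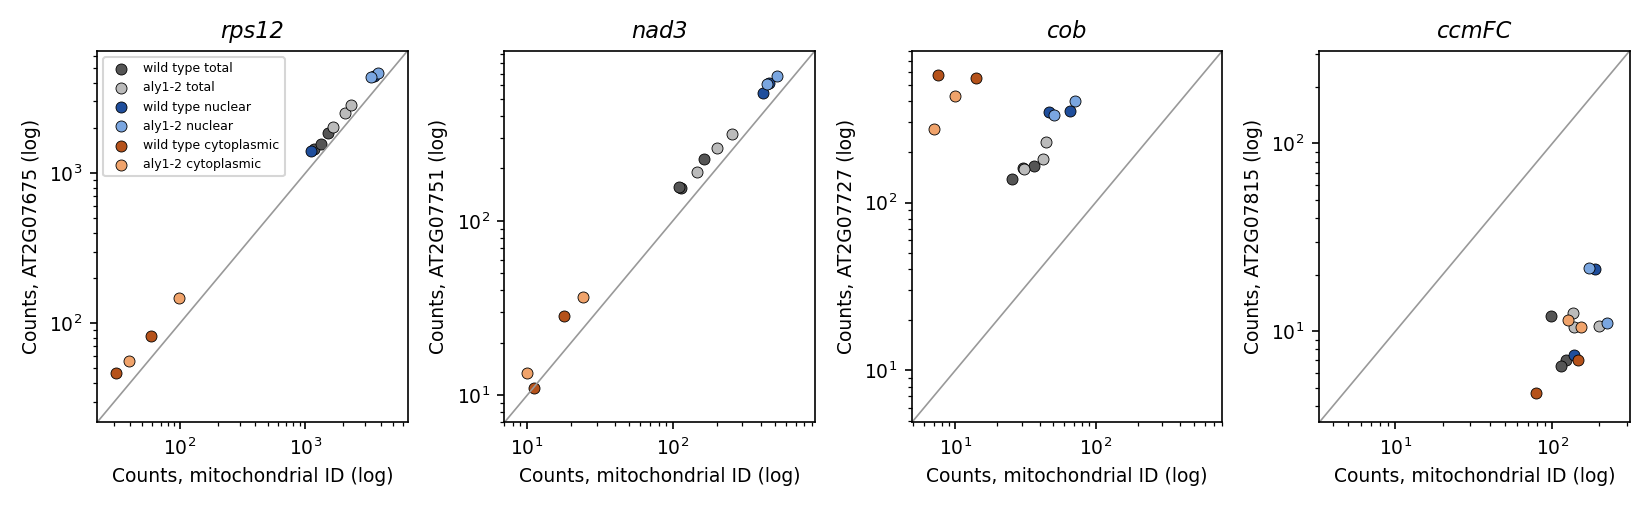
Counts of rps12, nad3, cob and ccmFC under the mitochondrial identifier against counts of the chromosome 2 partner, on log axes with 1 point per library and the line of equal counts. The rps12 and nad3 points follow the line, the cob points lie above it with the cytoplasmic libraries farthest off, and the ccmFC points lie below it.

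Between aly1-2 and wild type, 0 mitochondrial loci passed in total RNA (63 tested), nuclear RNA or cytoplasmic RNA (73 tested each), or in the interaction of genotype and fraction (73 tested), in edgeR's test. Over all genes 0.475% passed in total RNA (0.206% higher, 0.269% lower in aly1-2), 0.0381% in nuclear RNA (0.0143% and 0.0238%), 0.0143% in cytoplasmic RNA (0.00477% and 0.00954%) and 0% in the interaction. Counts at an unadjusted p under 0.05 were 8, 2, 9 and 5. DESeq2 called 3 loci in total RNA and 0 in the other 3 comparisons. In total RNA edgeR called 5 without aly1-2 replicate 1 and 1 without wild-type replicate 3. Over all genes, DESeq2 called 553 in total RNA, and edgeR called 1639 and 40 without these libraries. The median log2 difference was 0.07 in total, 0.15 in nuclear and 0.20 in cytoplasmic RNA, against 0.01, 0.02 and 0 over all genes. The summed mitochondrial share differed by 0.0876 points in total, 0.134 in nuclear and 0.0760 in cytoplasmic RNA, with exact permutation p of 0.5, 0.667 and 0.667, where the smallest possible p are 0.1 and, in both fractions, 0.333.

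The loci nearest to the threshold, singled out after their values were seen, were low in aly1-2. In total RNA ATMG00516 had 10.5, 13.7 and 7.44 CPM in wild type against 4.51, 3.57 and 4.79 in the mutant, 17.5 and 16.7 against 9.26 and 5.92 in nuclear RNA, and 2.12 and 4.65 against 1.71 and 1.63 in cytoplasmic RNA. The genotypes did not overlap in any fraction, but the locus was picked with these values known. With 2 against 2 libraries the smallest possible exact permutation p is 0.333. Its differences were -1.295 ± 0.234 in total (edgeR adjusted p = 0.0661, and 0.0002844 in DESeq2), -1.135 ± 0.473 in nuclear and -1.11 ± 0.62 in cytoplasmic RNA. ATMG00160 had 15.4, 16.3 and 9.17 CPM against 7.24, 6.40 and 6.11 in total RNA (-1.05 ± 0.22, edgeR adjusted p = 0.0923, and 0.002363 in DESeq2). As shares of mitochondrial counts both passed in total RNA, at -1.50 ± 0.32 and -1.22 ± 0.31.

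ATMG00030 went the other way, with total RNA values of 28.8, 20.02 and 38.8 CPM for wild type against 46.2, 56.3 and 60.6 for aly1-2. Its difference was 0.89 ± 0.22 in total (edgeR adjusted p = 0.137, and 0.002823 in DESeq2) and 1.43 ± 0.41 in cytoplasmic RNA (adjusted p = 0.422). In nuclear RNA it was 0.59 ± 0.40 (edgeR unadjusted p = 0.164). Of the loci with a symbol, atp9 had total RNA values of 17.8, 17.6 and 15.3 CPM for wild type against 12.2, 9.14 and 13.3 for aly1-2, 32.8 and 25.7 against 19.0 and 18.3 in nuclear RNA and 34.3 and 17.8 against 9.54 and 12.0 in cytoplasmic RNA. The genotypes did not overlap in any of the 3, for a locus likewise singled out after its values were seen. The differences of -0.55 ± 0.16, -0.62 ± 0.37 and -1.315 ± 0.405 did not pass (edgeR adjusted p = 0.179, 1 and 0.424). For rps12 the difference in total RNA was 0.34 ± 0.14 (adjusted p = 0.329) and for nad3 0.37 ± 0.22 (adjusted p = 0.479).

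**Figure D5:**
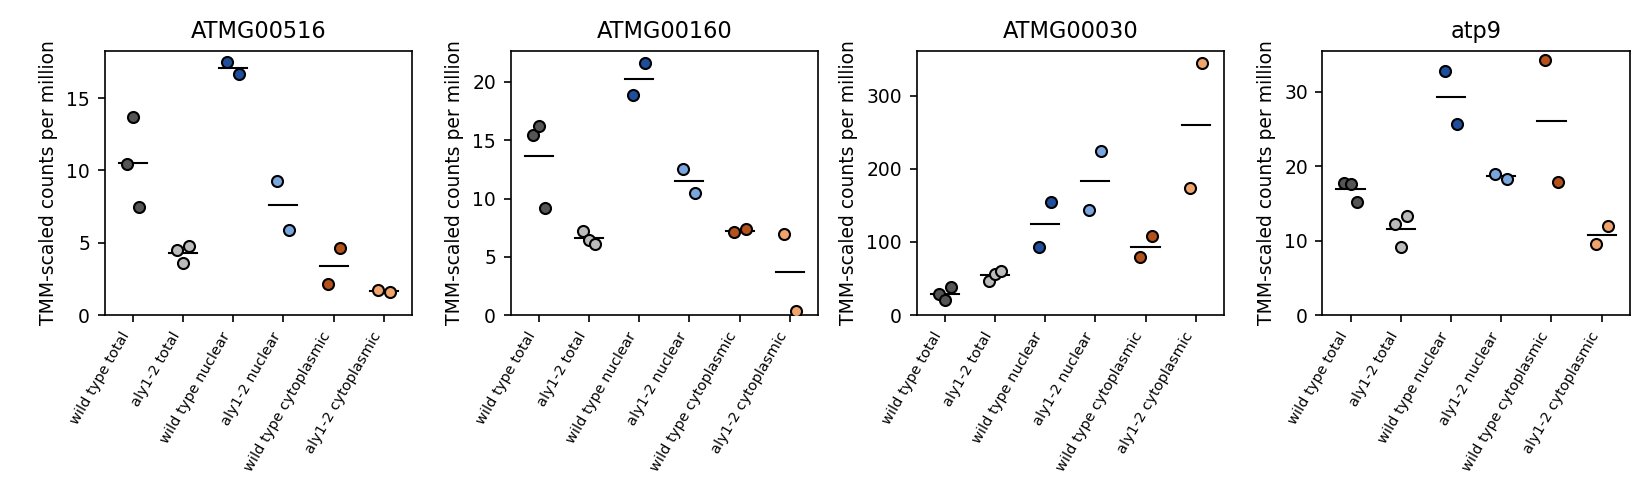
TMM-scaled CPM of ATMG00516, ATMG00160, ATMG00030 and atp9 by genotype and fraction, with 1 point per library and lines at group means. The 4 loci were picked with these values known, so the lack of overlap between genotypes in total RNA is no separate support. None passed an adjusted p of 0.05 between genotypes in the main edgeR fit.

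Nuclear genes for the same organelle were compared across the same fractions. The list held 26 nuclear genes for subunits of complexes I to IV and of the ATP synthase, cytochrome c, alternative oxidase and mitochondrial RNA decay, all of them tested. In nuclear against cytoplasmic RNA 8 were lower and 3 higher, with a median of -0.51 against 0.10 over all genes, where 16.9% of all genes were lower and 21.3% higher. Those lower included the complex I subunit gene CI51 (-1.41 ± 0.21), the gamma carbonic anhydrase gene GAMMA CA2 (-1.24 ± 0.21), SDH2-2 of complex II (-1.67 ± 0.25) and COX6B of complex IV (-1.41 ± 0.21). The 3 higher ones were the ATP synthase genes AT5G08680 and AT5G08690, whose near-identical neighbours can share reads, and AT5G14580, for a polyribonucleotide nucleotidyltransferase, an enzyme that degrades RNA (2.66 ± 0.56). None of the 26 passed between genotypes in edgeR, where 2, 1 and 1 had an unadjusted p under 0.05 in total, nuclear and cytoplasmic RNA.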

How the data were processed

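Poly(A)+ RNA of 14 libraries (3 total, 2 nuclear and 2 cytoplasmic per genotype) was sequenced from directional libraries, per the labels' protocols. The submitters' processing notes name STAR 2.5.1b, featureCounts, Subread 1.6.1 and the TAIR10 build. The values deposited by the authors are estimated counts per gene, with fractions such as 0.5 where reads match several places, and the labels do not say how such reads were shared. Transposon tables were not used.

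Counts were rounded and fitted over all genes with edgeR 4.0.16 in R 4.3.3 (filterByExpr with minimum counts of 10 and 15 in total, TMM, quasi-likelihood test, Benjamini-Hochberg adjusted p under 0.05). Genotype in total RNA used 6 libraries, genotype in each fraction, the interaction and nuclear against cytoplasmic RNA used 8, and comparisons with total RNA used all 14. Printed CPM levels by locus are TMM-scaled over 14 libraries, apart from ALY1 and the levels per kb. These and the summed CPM are on library totals without TMM. The fit was tested on simulated data for genotype in total RNA, nuclear against cytoplasmic and nuclear against total RNA. There it recovered 54.1%, 17.4% and 58.3% of changes of 1 on the log2 scale. For changes of 2 it recovered 92.9%, 75.5% and 85.7%. Genotype within a fraction was not simulated. DESeq2 1.42.0, other filters and scalings, a replicate block and leaving out each library were the alternatives.

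Sequences, gene notes and positions come from RefSeq TAIR10.1, compared by BLAST 2.17.0. Named were all loci with a symbol, the 6 highest other annotated loci and loci past the threshold between genotypes, of which there were none. Unnamed loci were added after their values were seen. The loci, lists and tests were chosen with earlier results of these data known.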

Additional observations from a re-analysis of the deposited data

How the results depend on the processing

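Between genotypes in total RNA, where edgeR called 0 mitochondrial loci, DESeq2 called 3, no filter on low counts 3, library totals without TMM 1 and scaling to mitochondrial counts 2. Over all genes these settings called 553, 428, 137 and 534, against 97 in the main fit. Leaving out 1 library gave 0 to 5, with 5 without aly1-2 replicate 1 and 1 without wild-type replicate 3. Over all genes these 2 fits called 1639 and 40. In cytoplasmic RNA no filter gave 1, and 175 over all genes. For nuclear against cytoplasmic RNA 55 loci were called, 36 to 50 without 1 library, 27 in wild type alone and 26 in aly1-2 alone. For nuclear against total RNA 42 were called, 25 to 43 without 1 library, 23 on library totals, 8 on mitochondrial counts, 19 in wild type alone and 25 in aly1-2 alone. For cytoplasmic against total RNA 46 were called, 42 to 49 without 1 library, 72 on library totals, 71 on mitochondrial counts and 25 in aly1-2 alone. Library totals put the median log2 difference of all genes at 1.66, -0.34 and -1.99 in these 3 comparisons. Over all genes, nuclear against cytoplasmic RNA gave 8017 calls in the main fit, 4003 in wild type alone and 3974 in aly1-2 alone. Nuclear against total RNA gave 2855, 6338 on library totals, 16411 on mitochondrial counts, 1005 in wild type alone and 1227 in aly1-2 alone. Cytoplasmic against total RNA gave 11113, 19443 on library totals, 19776 on mitochondrial counts and 6799 in aly1-2 alone. Where fewer libraries entered, the test had fewer samples, and otherwise the cause was not tested.

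The mitochondrial share, in percentage points, turned for aly1-2 against wild type with whole-number loci only to -9.09e-05 in total and -9.54e-05 in nuclear RNA. It was 0.00369 to 0.159 in total, -0.0323 to 0.301 in nuclear and -0.0696 to 0.222 in cytoplasmic RNA without 1 library, negative without aly1-2 nuclear replicate 1 and without aly1-2 cytoplasmic replicate 2. Nuclear minus cytoplasmic turned to -0.271 without rRNA in the total and -0.998 without rRNA and plastid counts. Cytoplasmic minus total became 0.814 and 1.63 in these settings, -0.00325 with whole-number loci and -0.0757 without ATMG00020 and ATMG01390.

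Over the single loci, 1992 results under an alternative kept direction and call, 200 lost the call, 84 gained it and 48 changed sign. Nuclear minus cytoplasmic differences changed sign on library totals for ATMG00020 (0.53), ccmFC (0.53), ATMG01390 (0.54) and ATMG00030 (1.48). ATMG00030 also did so with no filter (0.021), on mitochondrial counts (0.80) and in wild type alone (0.35), and ranged from -0.28 to 0.26 without 1 library. With partner reads added cob had -1.66. Nuclear minus total differences changed sign on library totals for ATMG00530 (-0.12). On mitochondrial counts they did so for ATMG00020 (-0.0989), ATMG00160 (-0.67), ccmFC (-0.34), rpl5 (-0.17), rps4 (-0.16), atp6 (-0.20), atp8 (-0.56), ATMG00516 (-0.59), ATMG00530 (-1.06), ATMG00590 (-0.24), ATMG00610 (-0.61), ATMG00660 (-0.32), ATMG00830 (-0.25), atp9 (-0.58), ATMG01090 (-0.89), atp1 (-0.48), rps7 (-0.43), ATMG01280 (-0.29), nad2 (-0.28) and ATMG01330 (-0.54). Without 1 library ATMG00230 ranged from -1.09 to 3.74 and ATMG00530 from -0.10 to 0.53. Cytoplasmic minus total differences changed sign on library totals for cob (-1.68), ATMG00830 (-1.22) and atp9 (-1.71), and on mitochondrial counts for ATMG00030 (-0.19), ccmFC (-0.14), cob (-1.86), ATMG00830 (-1.38) and atp9 (-1.87). In aly1-2 alone cox3 had 0.18 and atp9 -0.13, and without 1 library they ranged from -1.31 to 0.33 and from -0.0756 to 0.40.

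Replicate numbers were not taken to pair the samples. Deviations of same-numbered libraries of wild type and aly1-2 correlated at -0.0951, -0.227 and 0.25 in total, 0.179 in nuclear and -0.0391 in cytoplasmic RNA, and those of nuclear and cytoplasmic libraries at 0.0386 in wild type and 0.25 in aly1-2. The fit with the replicate number as a block called 0 loci between genotypes in total, nuclear and cytoplasmic RNA and in the interaction, 53 for nuclear against cytoplasmic, 32 for nuclear against total and 42 for cytoplasmic against total RNA. Leaving mitochondrial rRNA out of the share was not run, since the tables used here name no such locus. Low counts limit the values of many loci: 87 to 106 loci were above 0 in the cytoplasmic libraries, of which rRNA took 49.4% to 60.5%, and 136 to 141 in the nuclear ones.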
